A study of Mus musculus with 6 samples.

Results

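The simple epithelial keratins are the intermediate filament proteins of single-layered epithelia, and 6 of their genes were read here in mouse stomach corpus: Krt7, Krt8, Krt18, Krt19, Krt20 and Krt23. They were taken by gene symbol, and all 6 were found among 18988 rows of the expression table, which held 42 keratin rows in all. RNA was sequenced from the corpus of 6 mice on a C57BL/6 background, 1 mouse per library. The 3 controls carried Ras;APC FF (replicates 1 to 3), and the other 3 carried PGC;Ras;APC FF (replicates 4 to 6, called PGC mice from here on), so that the Ras and APC FF components were shared by both groups. What PGC and FF stand for is not explained in the labels, which also leave out age, sex and any induction, so the promoter and cell type behind each allele are not stated here. The comparison asks what differs in the corpus when PGC is added.

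Keratin filaments form only when a type I keratin pairs with a type II keratin, and in simple epithelia the founding pair is KRT8 (type II) with KRT18 (type I). KRT7 is a second type II protein, found in ducts and other glandular linings. KRT19 is a short type I keratin of ducts and progenitor zones, KRT20 a type I keratin of differentiated surface cells in stomach and intestine, and KRT23 a further type I keratin. The genes lie in 2 clusters. On chromosome 15, in mm10 coordinates, Krt7 spans 101411043 to 101430313 on the plus strand, Krt8 spans 101996698 to 102004482 on the minus strand and Krt18 spans 102028180 to 102032027 on the plus strand. Krt8 and Krt18 are thus neighbours transcribed away from each other, with starts 23.7 kb apart. Krt20 (99428403 to 99438150), Krt23 (99477974 to 99493137) and Krt19 (100140810 to 100148665) lie on the minus strand of chromosome 11. An annotated antisense gene, Gm671, overlaps Krt7, and a long noncoding gene, Gm36026, overlaps Krt8 on the opposite strand. The sources used here do not say whether counting used the strand, so reads of these partners cannot be told apart from the keratins. Krt8 and Krt18 each have 1 annotated pseudogene copy (Krt8-ps and Gm5200) with at least 90% identity over at least 200 bases, and are uncertain to the extent that reads were shared with it. The other 4 genes have no such copy in the annotation.

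The sequences before the start sites of Krt7 and Krt20 are shown because these genes had the largest differences of the 6 between the groups. Each run is the 250 bases upstream of the RefSeq start (build GRCm38.p6), 5′ to 3′ on the gene's strand, at chr15:101412153-101412402 (plus strand) for Krt7 and chr11:99438154-99438403 (minus strand) for Krt20. This RefSeq start of Krt7 lies inside the GENCODE span given above, downstream of its first base. Capitals mark matches to any of 4 motifs searched on both strands. The TATA box was searched as TATAAA, and the GC box as GGGCGG. The AP-1 site was searched as TGANTCA, and the TCF/LEF site as CTTTGAT.
Krt7: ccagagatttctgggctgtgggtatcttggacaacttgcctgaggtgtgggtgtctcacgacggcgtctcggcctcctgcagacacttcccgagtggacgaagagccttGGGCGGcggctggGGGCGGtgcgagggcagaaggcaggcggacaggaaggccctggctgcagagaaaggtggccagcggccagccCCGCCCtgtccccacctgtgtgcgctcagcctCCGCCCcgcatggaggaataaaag
Krt20: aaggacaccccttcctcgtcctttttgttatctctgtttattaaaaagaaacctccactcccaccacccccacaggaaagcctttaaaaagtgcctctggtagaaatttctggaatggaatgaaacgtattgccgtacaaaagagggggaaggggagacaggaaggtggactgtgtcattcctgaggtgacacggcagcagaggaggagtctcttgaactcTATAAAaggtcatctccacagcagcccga
The Krt7 window held 4 GC boxes, starting 141, 128, 56 and 24 bases before the start, and no TATAAA, with 66.0% G and C. The Krt20 window held 1 TATAAA, starting 29 bases before the start, and no GC box, with 48.0% G and C. Of 32851 mouse promoter windows of the same length, 32.7% held a GC box, 12.4% a TATAAA, 6.75% the AP-1 letters and 3.21% the TCF/LEF letters, and the median G and C content was 52.4%. Neither window held the AP-1 or TCF/LEF letters, which says nothing about binding of those factors elsewhere.

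Expression is given as FPKM (fragments scaled to gene length and to the library total), a scale on which genes of 1 library can be compared. Between libraries FPKM also moves with the share taken by the most abundant genes, so other scalings are given beside the main one. The number of reads per library is not given in the sources used here. Between 11465 and 12407 genes reached 1 FPKM per library. Replicate 6 stood apart. Over the tested genes its log2 values had r = 0.904 to 0.909 with the controls, while replicates 4 and 5 had r = 0.965 to 0.981 (across genes, which are not independent). The 3 most abundant genes, Pgc, Clps and Tff1, took 38.0% to 43.5% of summed FPKM in controls, 31.0% and 31.4% in replicates 5 and 4 and 14.3% in replicate 6. Control replicate 3 was the 1 library with Ddx3y (6.09 FPKM) and Eif2s3y (13.2 FPKM) above 0.01 and without Xist, so that sex was not balanced between the groups. Calls on the keratins that change without replicate 6 or 3 are given beside them, and so are changes without replicate 6 for the gene lists.

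In control corpus the keratin transcripts were those of 3 abundant genes and 3 less abundant ones. Krt19 was at 930, 1087 and 1105 FPKM in replicates 1, 2 and 3, and Krt8 at 887, 1040 and 1123 FPKM. These levels placed Krt19 and Krt8 at ranks 33 and 35 of 11857 tested genes, and they did not differ from each other beyond the spread between mice. Krt18, the type I partner of Krt8, was at 403, 428 and 415 FPKM, below Krt8 in every library. Krt23 (48.8 ± 11.5 FPKM) and Krt20 (44.2 ± 19.4 FPKM, SD, n = 3 each) came next and overlapped. Krt7 was the lowest of the 6 at 7.58 ± 0.919 FPKM. Among the controls, every keratin of the 6 except Krt18 was highest in replicate 3, where Krt20 stood at 66.6 FPKM against 33.2 and 32.8 in the other controls.

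Of the 6 genes, Krt7 showed the largest difference between the groups. It was at 6.72, 7.48 and 8.55 FPKM in controls 1, 2 and 3, and at 89.9, 49.5 and 351 FPKM in PGC replicates 4, 5 and 6. The groups were far apart, and the PGC libraries also differed widely among themselves. In whole corpus, more cells of a type and more RNA per cell cannot be told apart. The ratio of the group means was 21.5, and 9.19 with replicate 6 left out. On the log2(FPKM + 1) scale the difference was 3.78 ± 0.61 (SE, 95% interval 2.36 to 5.19), the 15th largest of the 11857 tested, with a limma adjusted p of 0.0850.

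Krt20 came second. It was at 33.2, 32.8 and 66.6 FPKM in controls, against 194, 103 and 356 FPKM in replicates 4, 5 and 6. The lowest PGC library lay above the highest control, and the order of the 3 PGC libraries was that seen for Krt7. The ratio of the group means was 4.92, and 3.36 with replicate 6 left out. The log2 difference was 2.18 ± 0.46 (SE, 95% interval 1.12 to 3.23), rank 72 of all tested genes, with a limma adjusted p of 0.0850.

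The 4 other keratins differed 1.68- to 1.97-fold between group means. Krt19 was at 1679, 1963 and 2504 FPKM in replicates 4, 5 and 6, a log2 difference of 0.96 ± 0.24 (SE, 95% interval 0.41 to 1.51). Krt8 was at 1587, 1658 and 2118 FPKM there (log2 difference 0.81 ± 0.22, 95% interval 0.29 to 1.33). Krt18 was at 553, 691 and 1086 FPKM (log2 difference 0.84 ± 0.26, 95% interval 0.24 to 1.45). Krt18 was the tightest of the 6 in controls (SD 2.97% of the mean) and spread to 35.6% in PGC mice. Krt23 was at 37.6, 48.4 and 60.6 FPKM in controls, against 71.5, 72.0 and 103 FPKM in replicates 4, 5 and 6 (log2 difference 0.74 ± 0.22, 95% interval 0.23 to 1.26). In each of these genes every PGC library exceeded every control, and replicate 6 was the highest library.

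**Figure D1:**
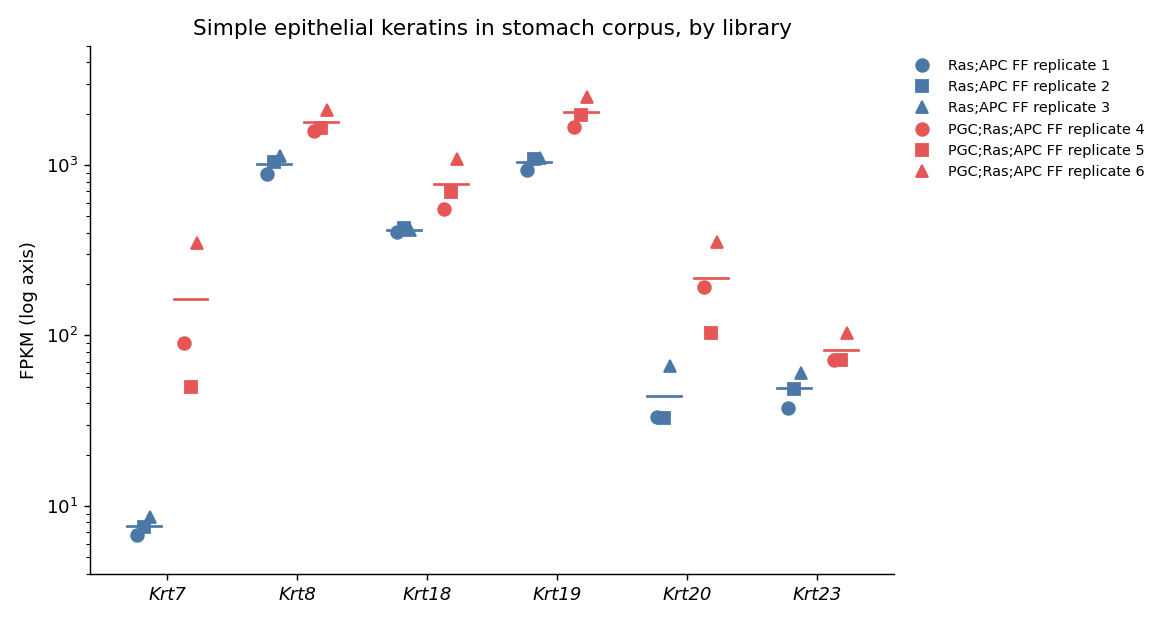
FPKM (log axis) of the 6 keratin genes in each library; points are single mice and short lines are group means, blue for Ras;APC FF and red for PGC;Ras;APC FF. Krt7 goes from 6.72 to 8.55 FPKM in controls to 49.5 to 351 FPKM in PGC;Ras;APC FF, while Krt8, Krt18, Krt19 and Krt23 shift by smaller steps without overlap.

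None of the 6 keratins passed the limma threshold over all genes with all libraries in the fit: their adjusted p ran from 0.0850 to 0.0932, while 0.11% of all tested genes passed as higher and 0.0422% as lower. At an unadjusted limma p under 0.05, 6 of 6 were higher, beside 31.8% of all tested genes higher and 3.63% lower. Groups did not overlap, with PGC mice above, in 6 of 6, beside 42.7% of all tested genes above and 5.47% below. An exact permutation test of 3 against 3 mice gave p = 0.1 for each gene, the smallest value that design allows. The median log2 difference of all tested genes was 0.26, so the FPKM scale as a whole was shifted upwards in PGC mice. After median-of-ratios scaling, which brought that median to -0.0027, the differences were 3.49 for Krt7, 1.87 for Krt20, 0.65 for Krt19, 0.53 for Krt18, 0.50 for Krt8 and 0.44 for Krt23. The groups still did not overlap for any of the 6, beside 18% of tested genes above and 16.7% below, and limma adjusted p were 0.0845 to 0.177. The calls on all genes were 13 higher and 5 lower on the FPKM scale and 9 higher (0.0759%) and 10 lower (0.0843%) after this scaling.

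With replicate 6 left out, Krt7, Krt20 and Krt19 rose at the limma adjusted threshold, beside 7.17% of all tested genes called higher in that fit. Their log2 differences there were 2.99, 1.74 and 0.81, with limma adjusted p of 0.00339, 0.0393 and 0.0403. Krt8 (0.68, adjusted p = 0.0507), Krt18 (0.57, 0.0548) and Krt23 (0.57, 0.0910) did not pass limma there. Leaving out replicate 5 instead, Krt7 and Krt20 rose (4.39 and 2.62, limma adjusted p = 0.00467 and 0.0144), beside 3.54% of all tested genes. With any 1 control left out, 0 of 6 passed limma, but 0 of all tested genes passed in those fits. All 6 had an unadjusted limma p under 0.05 there, beside 16.9% of all tested genes higher without replicate 1, 19.1% without replicate 2 and 24.1% without replicate 3. Without control replicate 3, the log2 difference of Krt20 was 2.51 and that of Krt7 3.86 (limma adjusted p = 0.182 each). Leaving out replicates 3 and 6 together, a setting added after seeing the data, passed all 6 at the limma adjusted threshold (0.0110 to 0.0344), beside 16.4% of all tested genes called higher.

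General epithelial genes were also higher in the corpus of PGC mice, and this was set beside the keratins. Of 12 listed genes of epithelial junctions, proteases and trafficking, 0 passed limma over all genes, 12 were higher at an unadjusted p under 0.05 (31.8% of all tested genes were) and the median log2 difference was 0.67, or 0.43 with replicate 6 left out. Cldn7, 1 of the 12, met the filter through the PGC libraries alone, so that it had to be higher. With replicate 6 left out, 3 of the 11 genes still tested rose (Epcam, Lsr and Rab25, named after their values were seen, limma adjusted p = 0.0341 to 0.0427), beside 7.17% of all tested genes. The adhesion gene Cdh1 was at 145 ± 19.3 FPKM in controls, with 204, 211 and 254 FPKM in replicates 4, 5 and 6. Spint2, a serine protease inhibitor, was at 421 ± 57.1 FPKM in controls, against 570, 633 and 1067 FPKM in these replicates. The summed FPKM of the 12 genes was 987 to 1137 in controls, against 1487 to 2618 in PGC mice.

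Each library was therefore also centred at the mean of these epithelial genes. Krt7 and Krt20 rose on that scale as well, by 2.86 and 1.26 on the log2 scale (limma adjusted p = 0.00331 and 0.0274), and for both every PGC library lay above every control, beside 1.16% of all tested genes. Only 0.97% of tested genes were called higher there, and 53.9% lower. Krt19 (0.047), Krt18 (-0.071), Krt8 (-0.11) and Krt23 (-0.17) had overlapping groups and limma adjusted p of 0.517 to 0.881. The list mean was pulled by the junction gene Cldn7 (0.99, 0.74 and 0.82 FPKM in controls, and 13.6, 4.89 and 91.6 in replicates 4, 5 and 6; named after its values were seen). Without Cldn7 in the centring the differences were 3.09 for Krt7 (limma adjusted p = 0.0332), 1.49 for Krt20 (0.0566), 0.28 for Krt19, 0.16 for Krt18, 0.12 for Krt8 and 0.058 for Krt23. That setting called 0.278% of all tested genes higher, and the groups did not overlap for Krt7, Krt20 and Krt19, beside 2.23%. The signs of Krt8, Krt18 and Krt23 thus turned with the choice of epithelial genes, and the call on Krt20 was lost.

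**Figure D2:**
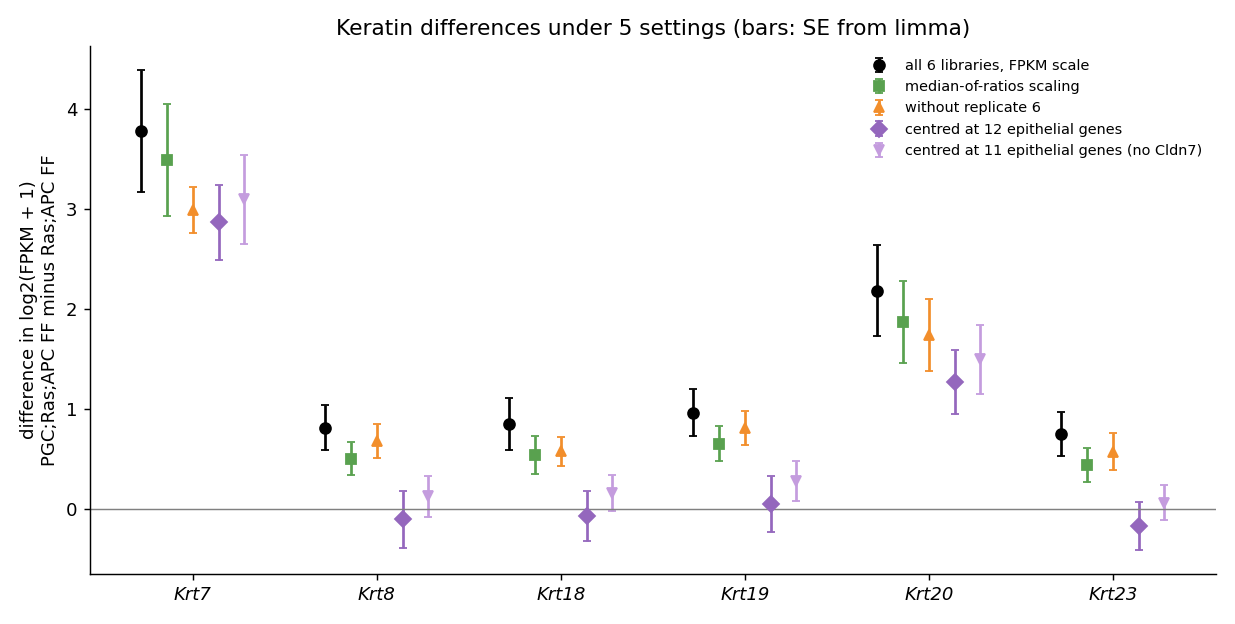
Difference in log2(FPKM + 1), PGC;Ras;APC FF minus Ras;APC FF, for each keratin under 5 settings, with bars of 1 SE from limma. Krt7 (2.86 to 3.78) and Krt20 (1.26 to 2.18) stay above 0 in all 5 settings, and Krt8, Krt18, Krt19 and Krt23 lie between -0.17 and 0.28 once libraries are centred at epithelial genes.

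The make-up of the keratin transcripts does not depend on scaling between libraries. Of the summed FPKM of the 6 genes, Krt7 made up 0.292%, 0.283% and 0.308% in controls, against 2.15%, 1.09% and 5.38% in replicates 4, 5 and 6. Krt20 made up 1.45%, 1.24% and 2.40% in controls and 4.64%, 2.28% and 5.46% in those replicates, so its groups overlapped on this measure. The share of Krt8 was lower, at 39.5% ± 0.917 in controls, against 35.7% ± 2.86 in PGC mice (SD, n = 3 each), without overlap. Shares of a common sum are tied, so a larger share of some members means a smaller share of others. In FPKM, Krt8 itself was higher in every PGC library than in every control. The shares of Krt19 (40.5% ± 0.679 and 40.6% ± 2.45), Krt18 (14.9% to 17.6% and 13.3% to 16.7%) and Krt23 (1.88% ± 0.276 and 1.63% ± 0.0741) overlapped between the groups.

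Set against Krt8 in the same library, Krt7 stood at 0.746 ± 0.0232 FPKM per 100 FPKM of Krt8 in controls, against 5.66, 2.99 and 16.6 in replicates 4, 5 and 6. The ratio of these type II genes was thus nearly constant over the controls and differed several-fold among PGC mice. Krt20 had 3.75, 3.15 and 5.93 FPKM per 100 of Krt8 in controls and 12.2, 6.23 and 16.8 in the others, where replicate 5 lay just above control replicate 3. Krt19 had 98.4 to 104.8 per 100 of Krt8 in controls, against 105.8 to 118.4 in PGC mice, groups that did not overlap but nearly met. Krt18 had 36.9 to 45.5 per 100 of Krt8 in controls, against 34.9 to 51.3 in PGC mice, so the founding pair kept overlapping ratios. The sum of the 4 type I genes per 100 FPKM of the pair of type II genes was 152 ± 5.83 in controls, against 160 ± 9.20 in PGC mice, again overlapping. Without replicate 6, the mean Krt7 share in PGC mice went from 2.88% to 1.62%, and the mean of Krt7 per 100 of Krt8 from 8.40 to 4.33. No test was made on shares or ratios, which are a description of 3 mice a group.

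**Figure D3:**
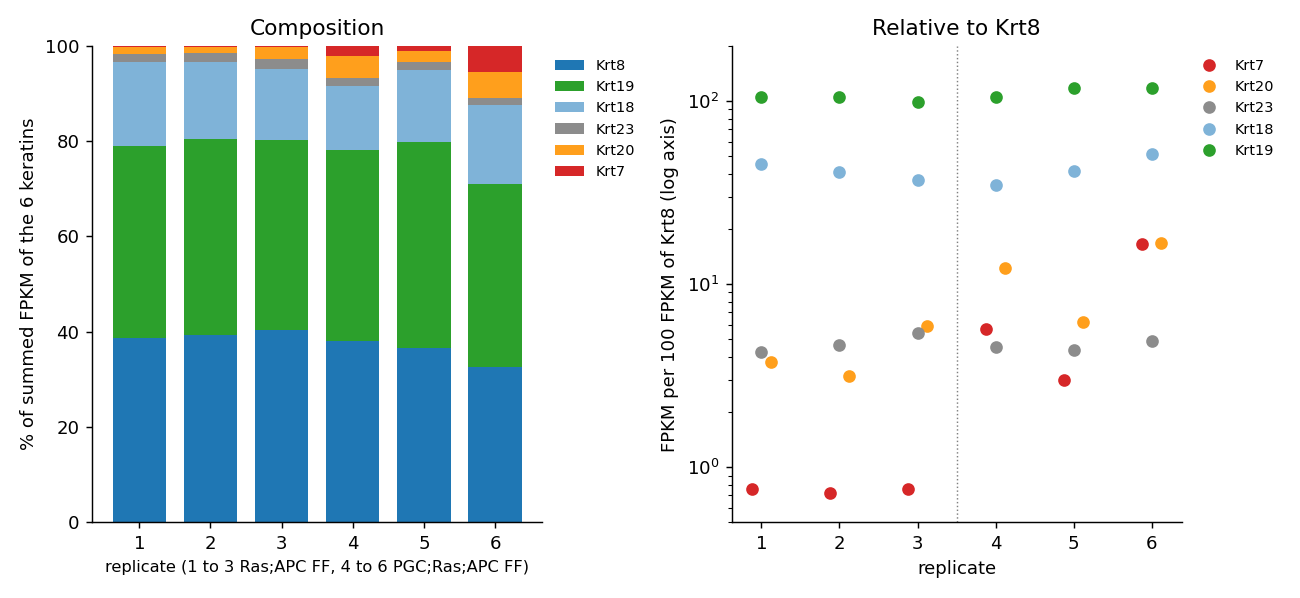
Left, percent of the summed FPKM of the 6 keratins taken by each gene in each library; right, FPKM of each gene per 100 FPKM of Krt8 (log axis), with a dotted line between Ras;APC FF (1 to 3) and PGC;Ras;APC FF (4 to 6). Krt7 goes from under 0.31% in controls to 1.09% to 5.38%, while the shares of Krt18 and Krt19 overlap between the groups.

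Across the 6 libraries, the profiles of Krt8 and Krt19 were the closest among the keratins, with a root mean square distance of 0.098 between their mean-centred log2 values. Krt8 and Krt23 followed at 0.11, and Krt18 lay 0.15 from Krt19. Over 5030 other genes with a mean of at least 10 FPKM, the median distance was 0.295 from Krt8 and 0.314 from Krt23. It was 0.354 from Krt18, 0.364 from Krt19 and 1.07 from Krt20. Krt7 was at least 0.91 from every other keratin, and Krt20 was its nearest. Among the 5030 genes, those nearest to Krt7 were Spock2, Mmp10 and Pglyrp1 (distances 0.20, 0.28 and 0.28, where the median gene lay at 1.88). The distance includes the group difference, so genes with a like difference lie near each other. Their log2 differences were 3.80, 4.09 and 3.38, beside 3.78 for Krt7. Mmp10, at 0.09, 0.03 and 0.16 FPKM in controls, met the filter through the PGC libraries alone. Pglyrp1, which encodes a peptidoglycan recognition protein, was at 22.3, 24.1 and 22.1 FPKM in controls, against 242, 87.4 and 717 FPKM in replicates 4, 5 and 6. The nearest to Krt20 were Sfn (which encodes 14-3-3 sigma, an epithelial keratin-binding protein), Ly6d and Aadac, at 0.25, 0.26 and 0.29. Those nearest to Krt8 were Ttc39a, Acp5 and Entpd6 (0.065 to 0.075), those nearest to Krt18 Pmf1, Ckap4 and Rps12 (0.056 to 0.064) and those nearest to Krt23 Gsta4, Tagln2 and Tmsb4x (0.034 to 0.061). Krt19 lay nearest to Acp5 (0.057), the Notch target gene Hes1 (0.067) and Krt8.

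Keratins of stratified epithelia, skin and hair were scarce in every library. Of the 36 other keratin rows, 5 passed the filter of 1 FPKM in 3 libraries, and the summed FPKM of all 36 was 9.25 to 10.1 in controls, against 15.9 to 19.7 in PGC mice. In the same libraries the 6 simple epithelial keratins summed to 2298 to 2779 and 4174 to 6516 FPKM. None of the 5 passed limma over all genes. Krt79 was higher at an unadjusted limma p under 0.05, beside 31.8% of all tested genes. Krt13 and Krt78 are left out of this count. Krt13, a keratin of internal stratified epithelia, was at 0.83, 0.24 and 0.16 FPKM in controls, against 2.34, 3.01 and 4.63 FPKM in replicates 4, 5 and 6. It met the filter through the PGC libraries alone, so its difference is given as a description. Krt79 was at 3.39 ± 0.776 and 5.50 ± 0.560 FPKM and Krt80 at 2.56 ± 0.365 and 3.46 ± 0.406 FPKM. In each case the groups did not overlap, beside 42.7% of all tested genes with every PGC library above every control. Krt79 rose without replicate 6 (log2 difference 0.65, limma adjusted p = 0.0488), beside 7.17% of all tested genes. Krt78 went the other way, at 1.22, 1.25 and 1.09 FPKM in controls and 0.60, 0.85 and 0.42 FPKM in replicates 4, 5 and 6. It met the filter through the controls alone, so its difference too is a description. Krt17 (1.23 ± 0.417 and 0.780 ± 0.320 FPKM) overlapped. Krt10, of the upper epidermis, did not exceed 0.85 FPKM, and the basal cell keratins Krt5 and Krt14, from the squamous list, did not exceed 0.22 FPKM.

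Keratin filaments are anchored at desmosomes, where plakin proteins link them to plakoglobin and plakophilins. Of 11 tested desmosome and plakin genes 0 passed limma over all genes, and 4 were higher and 1 lower at an unadjusted p under 0.05, a share of higher genes near the 31.8% of all tested genes. Their median log2 difference was 0.40, beside 0.26 for all tested genes, and 0.25 with replicate 6 left out. Jup, which encodes plakoglobin, was at 81.3, 94.7 and 78.9 FPKM in controls, against 106, 127 and 129 FPKM in replicates 4, 5 and 6. Its groups did not overlap, beside 42.7% of all tested genes with every PGC library above every control. The desmosomal cadherin gene Dsc2 was at 40.8 ± 8.35 FPKM in controls, against 55.2, 45.7 and 60.7 FPKM in those replicates, with overlap. Of 7 tested genes for keratin-binding proteins and keratin turnover, 0 passed limma over all genes and 3 were higher at an unadjusted p under 0.05 (median 0.31), again beside 31.8% of all tested genes. Among them Sfn was at 13.4, 15.5 and 26.0 FPKM in controls, against 55.6, 48.96 and 148 FPKM in the others. Ywhaz (14-3-3 zeta) was at 111 ± 17.0 FPKM in controls, with 131, 145 and 244 in replicates 4, 5 and 6, and Casp6, a caspase that cleaves KRT18, was at 102 ± 33.2 FPKM in controls, against 97.1, 104 and 83.9 FPKM in the others. With replicate 6 left out, 1 gene of each list rose, beside 7.17% of all tested genes called higher in that fit. These were Pkp2 (plakophilin 2, log2 difference 0.61, limma adjusted p = 0.0337, named after its values were seen) and Sfn (1.52, 0.0324).

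Markers of the cells that could hold these keratins were read beside them, and their part in the keratin differences was not tested. Surface pit cell genes, the usual neighbours of Krt20, had 0 of 6 past limma, 0 at an unadjusted p under 0.05 and a median log2 difference of -0.063 (0.094 with replicate 6 left out). Their summed FPKM was 79878 to 154444 in controls, against 112809 to 117217 in PGC mice, with Tff1 at 49169 ± 17778 and 58044 ± 3596 FPKM and Gkn2 at 33764 ± 13641 and 29778 ± 2321 FPKM. All 4 mucous neck cell genes had PGC libraries above the controls, beside 42.7% of all tested genes, and 4 were higher at an unadjusted p under 0.05, beside 31.8%. Of these 4 genes 0 passed limma over all genes (median 1.27). With replicate 6 left out Agr2 rose (1.03, limma adjusted p = 0.0324), beside 7.17% of all tested genes called higher in that fit. Agr2 was at 442 ± 47.1 and 1144 ± 421 FPKM, and the 4 genes summed to 2486 to 3660 FPKM in controls, against 4625 to 14936 in PGC mice. Parietal cell genes had a median log2 difference of -1.07 (0 of 6 past limma), and of -0.36 with replicate 6 left out. In 4 of the 6 every PGC library lay below every control, beside 5.47% of all tested genes. Endocrine cell genes (0 of 5 past limma) had a median of -0.73, and of -0.067 with replicate 6 left out. Chief cell genes (0 of 5 past limma) had a median of -0.16, which turned to 0.56 with replicate 6 left out. Most of the chief cell sum was Pgc, whose symbol matches the PGC component that separates the groups. Any link between this gene and that component was not tested. The sum of the chief cell genes was 155813 to 206576 FPKM in controls. It was 106107, 94555 and 19903 FPKM in replicates 4, 5 and 6. Pgc was lower without overlap, beside 5.47% of all tested genes (log2 difference -1.80, and -1.01 with replicate 6 left out, limma adjusted p = 0.162 and 0.146). Pga5, named after its values were seen, went the other way, at 35.8, 39.9 and 30.4 FPKM in controls, against 59.5, 69.5 and 46.7 FPKM in replicates 4, 5 and 6. The other chief cell genes overlapped. Pga5 rose with replicate 6 left out (0.85, limma adjusted p = 0.0325). Tuft cell genes, whose cells are rich in KRT18, had 0 of 4 past limma and a median of 0.89. Avil was at 44.6 to 56.8 FPKM in controls and 76.3 to 134 FPKM in PGC mice. The tuft cell sums, most of them Avil, were 47.8 to 62.5 FPKM in controls and 82.3 to 155 FPKM in PGC mice. The tuft cell median was 0.52 without replicate 6, and Avil rose there (0.68, limma adjusted p = 0.0360).

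Squamous, mesothelial, intestinal and acinar markers were near 0 apart from a few genes. Squamous genes summed to 0.84 to 1.54 FPKM in controls, against 4.90 to 15.4 in PGC mice, of which Ivl, an envelope protein gene, gave 8.50 FPKM in replicate 6. Trp63 did not exceed 0.01 FPKM in any library, and Krt13 was the 1 member that passed the filter. Mesothelial genes, whose cells make KRT7, KRT8, KRT18 and KRT19, summed to 0.65 to 4.96 FPKM in controls and to 10.1, 3.99 and 8.21 FPKM in replicates 4, 5 and 6. Their part in the Krt7 difference was not tested. Msln was at 0.22, 0.41 and 1.08 FPKM in controls. It was at 3.17, 1.15 and 5.80 FPKM in replicates 4, 5 and 6, the order seen for Krt7. The other listed members (Upk3b, Upk1b, Lrrn4, Wt1 and Bnc1) did not have that order and were all highest in replicate 4. The intestinal master regulators Cdx1 and Cdx2 did not exceed 0.16 FPKM, while Vil1, of the brush border, was at 11.2 ± 1.67 FPKM in controls, against 20.6, 19.1 and 60.2 FPKM in replicates 4, 5 and 6. Vil1 rose with replicate 6 left out (0.78, limma adjusted p = 0.0338), beside 7.17% of all tested genes. Pancreatic acinar genes summed to 20.6 to 31.1 and 32.7 to 81.8 FPKM, nearly all of it Cela1, and Prss2 and Cpa1 did not exceed 0.04 FPKM.

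Genes of the non-epithelial wall were read in the same way. Smooth muscle genes were lower in all 7 members, without overlap (0 past limma over all genes, 7 lower at an unadjusted p under 0.05, beside 5.47% and 3.63% of all tested genes, median -1.25), summing to 1730 to 3061 FPKM in controls, against 780 to 1155 in PGC mice. With replicate 6 left out, 5 of 7 fell at the limma threshold, beside 0.914% of all tested genes. The actin gene Acta2 was at 560, 506 and 670 FPKM in controls, against 343, 293 and 213 FPKM in replicates 4, 5 and 6. Fibroblast genes (0 of 5 past limma, median 0.43), endothelial genes (0 of 4, median -0.012) and immune cell genes (0 of 4, median 0.54) had sums of 197 to 201, 30.4 to 33.1 and 10.7 to 12.1 FPKM in controls. With replicate 6 left out, the immune cell median was 0.31. Cd79a, named after its values were seen, rose there (1.04, limma adjusted p = 0.0416), beside 7.17% of all tested genes. The sums in PGC mice were 197 to 329, 29.6 to 35.3 and 11.4 to 28.3 FPKM. These tissue shifts ran beside the keratin differences, and their part in them was not tested.

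**Figure D4:**
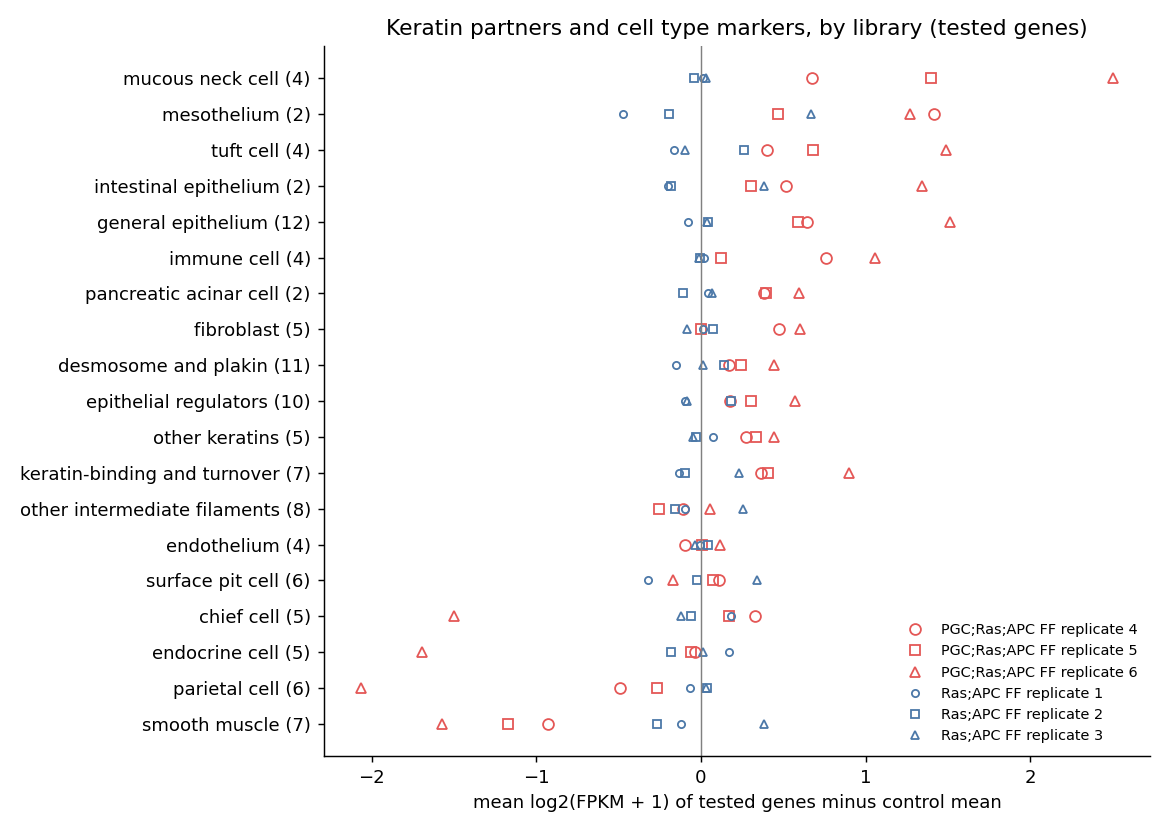
Mean log2(FPKM + 1) of the tested genes of each list except the squamous one, minus the control mean, in each library (blue, Ras;APC FF; red, PGC;Ras;APC FF), with the number of tested genes in brackets. Mucous neck and general epithelial genes lie above the controls in all 3 PGC libraries, smooth muscle genes lie below, and replicate 6 (triangles) is the farthest from 0 in most lists that differ.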

How the data were processed

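RNA-seq of 6 mouse stomach corpus libraries was analysed (3 Ras;APC FF, 3 PGC;Ras;APC FF, 1 mouse each). The deposited values are FPKM from the authors, given to 2 decimals. STAR, featureCounts and mm10 are named in the submitters' processing notes, per the labels, but versions, annotation, strand setting and how FPKM were derived are not stated there. Per the labels' protocols, RNA was column-purified with DNase, and libraries were made at BGI.

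FPKM are not counts, so log2(FPKM + 1) was modelled on genotype alone by limma 3.58.1 (R 4.3.3, moderated two-sided test with a trended prior). Genes with at least 1 FPKM in at least 3 of 6 libraries were tested (11857), with Benjamini-Hochberg adjustment over all of them and a threshold of 0.05. The fit had 4 residual degrees of freedom, 7.72 with the prior, and was tested on simulated data. Log2 differences understate low genes. Read depth is unknown, so no counting interval is given. Coordinates are from GENCODE M21 (GRCm38, the assembly of mm10), near-identical copies from blastn 2.17.0, and promoters from RefSeq (5 of the 6 genes had an entry).

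The 6 genes and all gene lists were chosen with earlier results of these data known, so no p is adjusted over a list and no list test was made. Genes named are the 6 keratins, the 6 most abundant other keratins, members of each list past the threshold or its 2 most abundant, and the 3 genes nearest each keratin. For lists of cell type markers the sums stand for some of these, and genes named outside the rule are the extremes or defining markers, seen with their values. Alternatives were the pseudocount, filters, scalings, variance models and leaving out libraries.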

Additional observations from a re-analysis of the deposited data

How the results depend on the processing

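Among the alternatives run, no difference fell from passing to missing the limma threshold, since none passed with all libraries. Signs turned for Krt8 (-0.11), Krt18 (-0.071) and Krt23 (-0.17) when libraries were centred at 12 epithelial genes, where Krt7 (2.86) and Krt20 (1.26) passed and the cause was not tested. In settings chosen after seeing the data, leaving Cldn7 out of that centring kept Krt7 past the threshold (3.09), and leaving out replicates 3 and 6 together passed all 6: Krt7 3.07, Krt20 2.07, Krt19 0.85, Krt8 0.75, Krt23 0.74 and Krt18 0.57. That fit has 2 residual degrees of freedom and called 16.4% of all tested genes higher. Array weights, whose iteration stopped before it converged, also passed all 6: Krt7 3.32, Krt20 2.19, Krt19 0.79, Krt8 0.72, Krt23 0.69 and Krt18 0.51. With these weights 3523 of all 11857 tested genes were called higher and 369 lower. Leaving out 1 library at a time gave 2.99 to 4.39 for Krt7, 1.74 to 2.62 for Krt20, 0.81 to 1.09 for Krt19, 0.68 to 0.89 for Krt8, 0.57 to 1.06 for Krt18 and 0.57 to 0.91 for Krt23. Of these 36 values, 31 stayed on the same side of the threshold and 5 newly passed.

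Genes called over the whole table numbered 18 with all libraries, 34 with a pseudocount of 0.1, 9 with no filter, 3892 with array weights, 6508 centred at the epithelial genes and 156 without Cldn7 among them, 2101 without replicates 3 and 6, and 0 to 938 with 1 library left out. The limma count was 0 without control 1, 2 or 3 (2270, 2516 and 3056 genes at an unadjusted p under 0.05), 5 without replicate 4, 458 without replicate 5 and 938 without replicate 6. Median-of-ratios scaling gave 19, quantile normalization 23, the total without the 50 most abundant genes 22 and a filter of 5 FPKM 20. Without replicate 6 the mean Krt7 share of PGC mice went from 2.88% to 1.62%, and leaving out 1 of 3 mice cannot move a mean by 1 SD, so no stability is read from these shares. No paired analysis was possible because the labels number the groups 1 to 3 and 4 to 6, with no shared number.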

Other observations

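Intermediate filaments of other families differed in both directions. Des (desmin, of muscle) was at 240, 197 and 414 FPKM in controls, against 131, 104 and 89.9 FPKM in replicates 4, 5 and 6, and Synm (synemin, its partner, named after its values were seen) at 28.2 ± 10.2 FPKM in controls, against 11.3, 9.70 and 7.31 FPKM in those replicates. Both were lower without overlap, beside 5.47% of all tested genes, with limma adjusted p of 0.0850. Both also fell with replicate 6 left out (-1.20 and -1.30, limma adjusted p = 0.0495 and 0.0341). Vim, of mesenchymal cells, overlapped between the groups (52.7 ± 8.01 FPKM in controls). The nuclear lamin gene Lmna was at 42.9, 41.6 and 53.7 FPKM in controls, against 59.7, 64.1 and 97.8 FPKM in replicates 4, 5 and 6. Lmnb1, named after its values were seen, was at 4.86 ± 0.821 FPKM in controls, against 9.15, 8.67 and 18.3 FPKM in those replicates. It rose with replicate 6 left out (0.77, limma adjusted p = 0.0341). In that fit 7.17% of all tested genes were called higher and 0.914% lower. Of the 8 tested genes 0 passed limma with all libraries, and 3 were higher and 3 lower at an unadjusted p under 0.05, beside 31.8% and 3.63% of all tested genes.

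Among 10 regulators of epithelial identity, 0 passed limma, 5 were higher at an unadjusted p under 0.05 (31.8% of all tested genes were) and the median log2 difference was 0.37, or 0.23 with replicate 6 left out. Esrp2, a splicing regulator named after its values were seen, rose in that fit (0.45, limma adjusted p = 0.0445), beside 7.17% of all tested genes. Elf3 was at 152, 158 and 168 FPKM in controls, against 188, 201 and 322 FPKM in replicates 4, 5 and 6, while Klf4 overlapped (144 ± 25.9 FPKM in controls, and 128, 172 and 134 FPKM in the others). Ehf, named after its values were seen, was at 7.33 ± 1.77 FPKM in controls, against 13.6, 11.2 and 32.6 FPKM in replicates 4, 5 and 6.

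The keratin gene Krt90, named after its values were seen, had 1.04, 0.36 and 0.55 FPKM in replicates 4, 5 and 6 and was listed at 0 in the 3 control libraries, which the filter on low values kept out of the test.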
